A study of Mus musculus with 6 samples.

Results

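Asns, the gene of asparagine synthetase, was at 25.3 and 20.4 CPM (counts per 1000000) in left ventricular cardiomyocytes (CMs) of newborn mice and at 1.95 to 7.11 before and after. The genes described here are 10 of the 27998 in the count tables, chosen by symbol. Phgdh, Psat1 and Psph make serine from a glycolytic intermediate. Shmt1 and Shmt2 move the one-carbon unit of serine onto folate, and Mthfd1, Mthfd2 and Mthfd1l act on one-carbon units bound to folate. Asns and Atf4 are the others. Each symbol was found once in the gene tables of all 6 libraries. ATF4 is a transcription factor that is translated when the kinases of the integrated stress response phosphorylate eIF2 alpha, and genes of serine synthesis, mitochondrial folate enzymes and Asns are among its known targets. One-carbon units on folate serve the synthesis of thymidylate and purines, and the pathway is best known from dividing cells, while CMs leave the cell cycle around birth.

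The data are single cell RNA sequencing (scRNA-seq) counts of sorted CMs from C57BL/6J mice, with 1 library for each of the 6 groups, E16.5-2n and E16.5-4n before birth and P1-2n, P5-2n, P1-4n and P5-4n after it, where E16.5 is embryonic day 16.5, P1 and P5 are postnatal days 1 and 5, and 2n and 4n stand for diploid and tetraploid. For the E16.5-4n library some labels give the age as 16.5 and others as a slightly later day, and the former was taken. Left ventricles were dissociated, fixed in methanol and stained for MYH1, and CMs were sorted by their DNA content (Hoechst). Cells of 3 sorts, each of 1 litter, were pooled before each library, so that litters cannot be told apart and no test between groups was possible, and any error given is the exact 95% interval of the counts (Poisson for levels, Clopper-Pearson for shares of CMs, and for ratios the binomial interval of how their UMIs divide), and it takes in no more than counting error. Where 6 values stand without names, they run by age from E16.5 to P5 and, within an age, from 2n to 4n.

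CMs were cells with at least 1 UMI (unique molecular identifier, 1 captured RNA molecule) of each of Tnni3, Tnnt2, Tnnc1 and Actc1, which 30733 of 31156 cells met. The libraries held 13213992 to 19714177 UMIs, and the median CM had 1831 UMIs in P1-2n and 4658 in P5-4n. Levels are given as CPM, the UMIs of a gene per 1000000 UMIs of all CMs of a library, and since 3' ends were counted, UMIs do not grow with transcript length, but capture differs between genes. Markers of 5 other cell types (19 genes of fibroblasts, endothelial, mural, epicardial and immune cells) summed to 155.1 CPM in both younger 2n libraries, 292 in P5-2n, 375 in P5-4n, 785.7 in E16.5-4n and, highest, 942.6 in P1-4n, and 1 of the 19 markers, an immune one, was at 0 in E16.5-2n. CMs with at least 2 UMIs of these markers were 3.54% and 3.51% in E16.5-2n and P1-2n and 24.8% and 37.9% in E16.5-4n and P1-4n. The summed level of 6 CM markers was between 25810 and 34690 CPM in these CMs. Erythroid genes summed to between 1648 and 10330 CPM, and 499 cell barcodes occurred in 2 or more libraries.

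Of the serine synthesis genes, Phgdh (ENSMUSG00000053398, GRCm38 chromosome 3, 98313170 to 98339990, minus strand) encodes phosphoglycerate dehydrogenase, which commits 3-phosphoglycerate to serine. Its level was 28.9 CPM (26.2 to 31.8) in E16.5-2n, 36.7 (33.5 to 40.2) in E16.5-4n, 40.7 (37.7 to 44.0) in P1-2n, 34.6 (32.0 to 37.3) in P1-4n, 2.90 (2.17 to 3.80) in P5-2n and 7.17 (6.00 to 8.51) in P5-4n. Both P5 libraries lay far below the other 4, which spanned 28.9 to 40.7 CPM, and P5-4n lay above P5-2n. From P1 to P5 the level was 14.0-fold lower in 2n and 4.82-fold lower in 4n CMs. At P5, 4n CMs had a 2.47-fold higher level than 2n CMs, from 132 and 52 UMIs. The share of CMs with a UMI of Phgdh in P5-2n did not exceed that of an immune marker, a gauge of free RNA, so that both ratios to P5-2n are ratios of measured UMIs and not of levels known to be those of CMs. Phgdh-ps1 is an annotated pseudogene of Phgdh, and reads that fit both could not be told apart.

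Psat1 (ENSMUSG00000024640, chromosome 19, 15904678 to 15947337, minus strand), the phosphoserine aminotransferase of the next step, had another time course. It was at 34.5 CPM (31.5 to 37.6) in E16.5-2n, 42.9 (39.4 to 46.6) in E16.5-4n, 10.8 (9.24 to 12.5) in P1-2n, 12.4 (10.9 to 14.1) in P1-4n, 11.8 (10.3 to 13.5) in P5-2n and 15.7 (14.0 to 17.6) in P5-4n. The E16.5 libraries were high and all 4 postnatal libraries low, with no overlap of the intervals between the ages before and after birth. The level at P1 was 3.20-fold lower than at E16.5 in 2n and 3.45-fold lower in 4n CMs. Psph (ENSMUSG00000029446, chromosome 5, 129765558 to 129787449, minus strand), the phosphatase that releases serine, was at 32.9 CPM (30.0 to 36.0) and 29.4 (26.5 to 32.5) in E16.5-2n and E16.5-4n, 23.3 (21.0 to 25.7) and 20.6 (18.6 to 22.7) in P1-2n and P1-4n, and 15.0 (13.3 to 16.9) and 16.0 (14.2 to 17.9) in P5-2n and P5-4n. Psph was thus lower at each later age in both ploidies, and 2n and 4n CMs of an age had overlapping intervals at all 3 ages. Hence by CPM the 3 enzymes of 1 linear pathway had different steps: Phgdh between P1 and P5, Psat1 between E16.5 and P1, and Psph by smaller amounts over both. Relative to the median log2 ratio of all genes, described below, Psph was at -0.16 (-0.36 to 0.03) and -0.21 (-0.42 to -0.0075) from E16.5 to P1 in 2n and 4n CMs. From P1 to P5 it was at -0.54 (-0.77 to -0.31) and -0.21 (-0.43 to 0.01). Not all of its steps were thus told apart from that median.

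**Figure D1:**
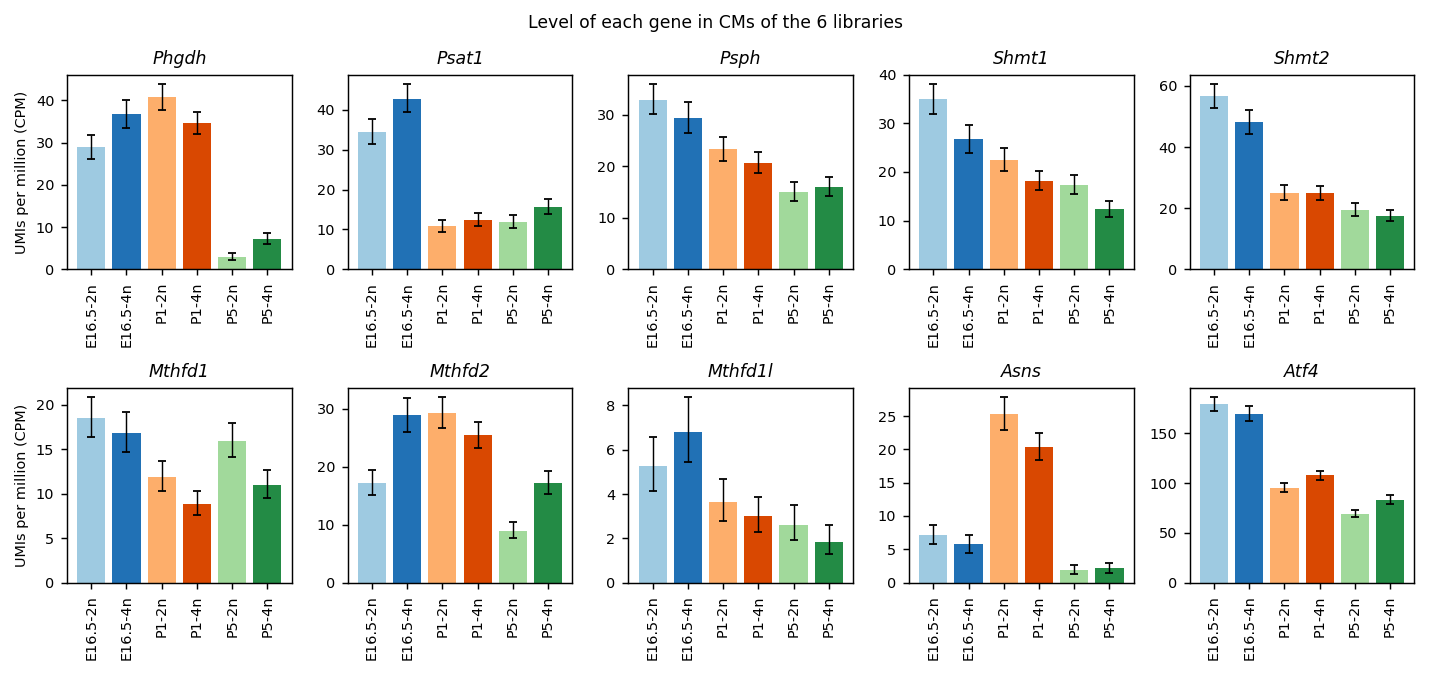
Level of each of the 10 genes (UMIs per 1000000 UMIs of CMs, linear axis from 0, with a scale of its own in each panel) in CMs of the 6 libraries. Bars are single libraries and error bars exact 95% Poisson intervals, which cover counting error only. Asns stands at 25.3 and 20.4 CPM at P1 and at most 7.11 at the other ages, Phgdh stands at 2.90 and 7.17 at P5, and Psat1 is highest in both E16.5 libraries.

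Among the folate enzymes, the cytosolic and mitochondrial serine hydroxymethyltransferases Shmt1 and Shmt2, which take the one-carbon unit from serine, were highest before birth. Shmt2 (ENSMUSG00000025403, chromosome 10, 127517123 to 127522444, minus strand) was at 56.7 CPM (52.9 to 60.7) and 48.1 (44.4 to 52.0) in E16.5-2n and E16.5-4n, 24.9 (22.6 to 27.5) and 25.0 (22.8 to 27.3) in P1-2n and P1-4n, and 19.4 (17.4 to 21.6) and 17.5 (15.6 to 19.5) in P5-2n and P5-4n. It was 2.27-fold and 1.92-fold lower at P1 than at E16.5 in 2n and 4n CMs. Shmt1 (ENSMUSG00000020534, chromosome 11, 60788104 to 60811718, minus strand) was at 34.9, 26.7, 22.4, 18.2, 17.4 and 12.3 CPM in the order of the libraries above, and in each age 2n CMs had more than 4n CMs, by 1.31-fold at E16.5, 1.24-fold at P1 and 1.41-fold at P5. Shmt1 overlaps Smcr8, and Shmt2 overlaps Ndufa4l2, on the opposite strand, but the counting was strand-specific.

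Mthfd2 (ENSMUSG00000005667, chromosome 6, 83305691 to 83325908, minus strand), a mitochondrial methylenetetrahydrofolate dehydrogenase and cyclohydrolase of dividing cells, was at 17.1 CPM (15.0 to 19.4) in E16.5-2n, 28.8 (26.0 to 31.9) in E16.5-4n, 29.3 (26.7 to 32.0) in P1-2n, 25.4 (23.2 to 27.7) in P1-4n, 8.98 (7.65 to 10.5) in P5-2n and 17.2 (15.3 to 19.2) in P5-4n. In 4n CMs it was higher than in 2n CMs at E16.5 (1.69-fold) and P5 (1.91-fold), and at P1 it was 1.15-fold lower. Mthfd1 (ENSMUSG00000021048, chromosome 12, 76255298 to 76319803, plus strand), the trifunctional cytosolic enzyme, was at 18.5, 16.8, 11.9, 8.85, 16.0 and 11.03 CPM in the order of the libraries. Its level at P5 was above that at P1 in both ploidies, with log2 ratios of 0.43 (0.16 to 0.70) in 2n and 0.32 (0.02 to 0.62) in 4n CMs. Mthfd1l (ENSMUSG00000040675, chromosome 10, 3973118 to 4167081, plus strand), the mitochondrial formate-tetrahydrofolate ligase, was at 5.27 and 6.81 CPM before birth (77 and 89 UMIs in 2n and 4n CMs), had 60 and 59 UMIs at P1, and was at 2.62 and 1.85 CPM at P5 (47 and 34 UMIs).

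Asns (ENSMUSG00000029752, chromosome 6, 7675169 to 7693254, minus strand) makes asparagine from aspartate and glutamine and belongs to no step of the folate cycle, but it is a standard readout of ATF4. It was at 7.11 CPM (5.81 to 8.62) in E16.5-2n, 5.74 (4.51 to 7.19) in E16.5-4n, 25.3 (22.9 to 27.9) in P1-2n, 20.4 (18.4 to 22.5) in P1-4n, 1.95 (1.36 to 2.72) in P5-2n and 2.12 (1.51 to 2.90) in P5-4n. The P1 libraries stood above all others without overlap, and the P5 libraries below. The level at P1 was 3.56-fold that at E16.5 in 2n and 3.55-fold in 4n CMs, and at P5 it was 13.0-fold and 9.62-fold lower than at P1. Since the shares of Asns in E16.5-4n and both P5 libraries did not exceed the gauge of free RNA, the ratios to these libraries are likewise ratios of measured UMIs. Atf4 itself (ENSMUSG00000042406, chromosome 15, 80255184 to 80257541, plus strand) was the most abundant member in all 6 libraries, at 179 CPM (173 to 186) and 170 (163 to 177) in E16.5-2n and E16.5-4n, 95.5 (90.8 to 100.3) and 108 (103 to 112) in P1-2n and P1-4n, and 69.4 (65.6 to 73.4) and 83.3 (79.2 to 87.6) in P5-2n and P5-4n. Thus the mRNA of Atf4 was lower at P1 than at E16.5, by 1.88-fold in 2n and 1.58-fold in 4n CMs, while that of Asns was higher. ATF4 is controlled by translation, so that its mRNA and its activity can differ, and protein was not measured.

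The promoter of Asns is shown since it is the only one of the 11 RefSeq promoters of the 10 genes (250 bases before to 50 after the start, GRCm38.p6) with a match to TGATGNAA, the composite site of ATF4 and C/EBP factors, searched on both strands, where N is any base. Capitals mark the match, which begins at position -23 relative to the start site, and the sequence is read 5' to 3' on the strand of the gene at chr6:7693160-7693459. Matches in known targets of ATF4 that come up again among the CMs of P1 follow in 30 bases each, where the same site lies on the other strand and reads as its reverse complement.
Asns: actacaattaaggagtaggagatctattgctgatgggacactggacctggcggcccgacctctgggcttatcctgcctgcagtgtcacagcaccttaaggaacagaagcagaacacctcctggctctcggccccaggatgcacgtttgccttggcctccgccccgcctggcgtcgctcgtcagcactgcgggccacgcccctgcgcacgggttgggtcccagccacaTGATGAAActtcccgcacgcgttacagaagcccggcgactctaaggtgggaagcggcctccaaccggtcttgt
Trib3: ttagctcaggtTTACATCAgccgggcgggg
Atf3: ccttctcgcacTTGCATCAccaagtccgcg
Chac1: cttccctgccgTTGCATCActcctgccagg
Nupr1: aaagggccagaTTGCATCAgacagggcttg
Fgf21: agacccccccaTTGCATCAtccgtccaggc
TGATGNAA was found in 3.97% of all 32851 promoters of the table and in 1 of the 11 promoters of the members. It was found in 9 of the 26 promoters of the 22 listed ATF4 targets that had a promoter there. CACGTG, the E-box, was found in 7.15% of all promoters and in 0 of the 11 of the members. These are matches of letters in a short window and not binding sites.

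For the comparisons across genes, ratios were taken relative to the median of all genes with at least 100 UMIs over the libraries compared, since that median was not at 0 between ages (log2 ratio of -0.34 in 2n and -0.30 in 4n CMs from E16.5 to P1), and a gene was called past the fold when it was at least 2-fold above or below it. From E16.5 to P1 in 2n CMs, 2 of 10 members were past the fold upwards (Asns at 2.17 and Mthfd2 at 1.11, log2), where 3.87% of all genes were, and 1 downwards (Psat1 at -1.34), against 6.21% of all genes. The call of Mthfd2 was lost as a mean over cells (0.40), after thinning (0.99) and without the 5% of CMs with most UMIs (0.57). In 4n CMs Asns was past it upwards (2.13, 5.06% of all genes) and Psat1 downwards (-1.49, 6.77% of all genes), and Mthfd2 was at 0.12. From P1 to P5, Phgdh (-3.72), Asns (-3.60) and Mthfd2 (-1.61) were past the fold downwards in 2n CMs, as 3 of 10 members against 1.48% of all genes, and 0 were upwards against 3.52%. As a mean over cells Mthfd2 was at -0.90 and no longer past it. In 4n CMs Asns (-3.11) and Phgdh (-2.11) were past it downwards, as 2 of 9 members against 4.06% of all genes, with 0 upwards against 3.13%. The comparisons share the P1 libraries, so that the step up and the step down of Asns are not independent. The median member was at -0.25 and -0.31 from E16.5 to P1 and at -0.37 and -0.35 from P1 to P5 in 2n and 4n CMs, where the median of all genes is 0.

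Between ploidies few members differed by much. Neither at E16.5 nor at P1 was a member past the fold from 2n to 4n CMs, where 4.48% and 5.0% of all genes were upwards and 0.0416% and 0.0% downwards. After thinning, Asns was past it downwards at P1 (-1.12 against -0.36). At P5, 1 of 8 members was upwards (Phgdh at 1.29, against 1.81% of all genes) and 0 downwards (0.417% of all genes), though the level of Phgdh in P5-2n is not told apart from free RNA. Mthfd2, at 0.92, was past the fold as a mean over cells (1.06) and after thinning (1.15). Shmt1 and Mthfd1 lay below the median of all genes in 4n CMs at each age. At E16.5, P1 and P5, Shmt1 was at -0.42, -0.35 and -0.51 and Mthfd1 at -0.17, -0.47 and -0.55 (log2). The interval of Mthfd1 at E16.5 included 0 (-0.43 to 0.09). Its unadjusted log2 ratio at that age ran from -0.42 to 0.10 over the alternatives. From E16.5 to P5, the sum of both steps, 4 of 10 members were past the fold downwards in 2n CMs (Phgdh, Psat1, Shmt2 and Asns, against 5.59% of all genes) and 2 of 10 in 4n CMs (Phgdh and Mthfd1l, against 6.99%), with 0 upwards in both (7.09% and 7.15%). In 4n CMs, Shmt2 and Asns were also past it after thinning (-1.23 and -1.33), and Psat1, Shmt2 and Asns without CMs with stromal UMIs (-1.10, -1.02 and -1.04).

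**Figure D2:**
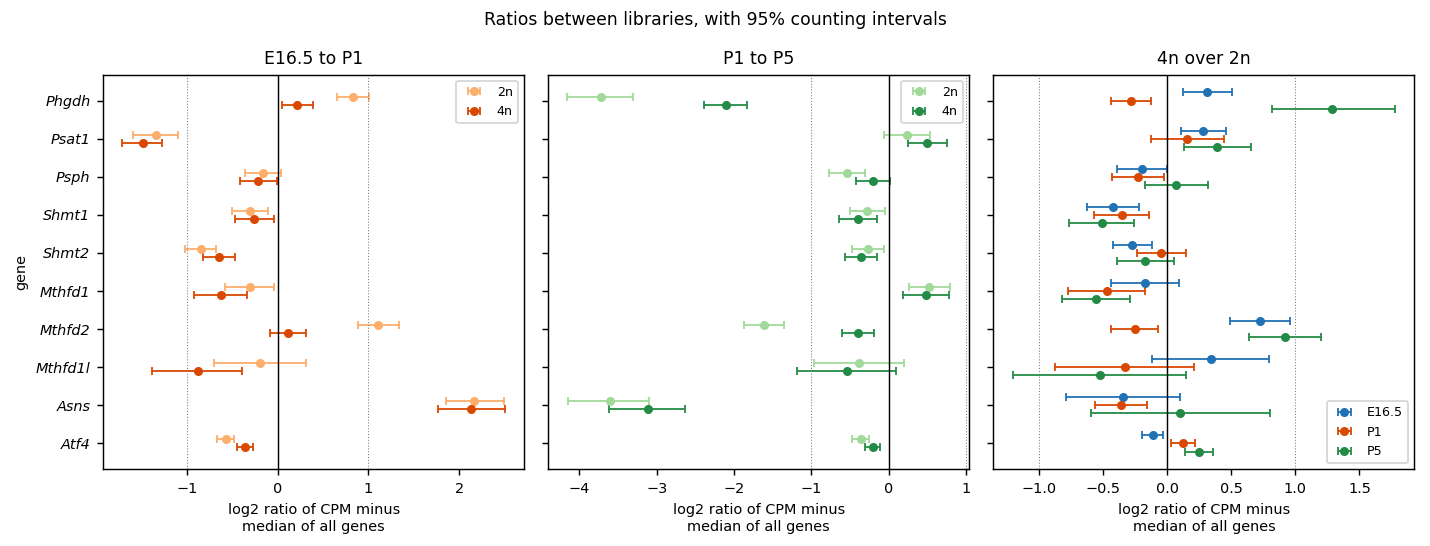
Log2 ratio of CPM between libraries for each gene, minus the median of all genes, from E16.5 to P1 (left), from P1 to P5 (middle) and of 4n over 2n (right). Points are 1 ratio of 2 libraries, bars exact 95% counting intervals, and dotted lines mark the fold of 2. Asns lies at 2.17 and 2.13 on the left and at -3.60 and -3.11 in the middle, and Psat1 at -1.34 and -1.49 on the left.

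The UMIs of all 9 enzymes together made 235.9, 241.9, 192.2, 168.3, 96.01 and 100.9 CPM in the 6 libraries. The sum was 2.00-fold lower at P5 than at P1 in 2n and 1.67-fold lower in 4n CMs. From E16.5 to P1 it was 1.23-fold and 1.44-fold lower, which in 2n CMs is no lower than the median of all genes (0.04 relative to it, -0.03 to 0.11, log2). The direction in 2n CMs depended on the scaling, since it was at 0.0033 with the median of ratios. The values for Phgdh and Mthfd2 at P1 also rested on the CMs with most UMIs. From E16.5 to P1 in 2n CMs the unadjusted log2 ratio of Phgdh was 0.49, but -0.04 without the 5% of CMs with most UMIs in each library and -0.19 as a mean over cells, and that of Mthfd2 was 0.77, 0.24 and 0.07 in the same order. Asns kept 1.35 and 1.10 against 1.83 in 2n CMs and 1.85 and 1.37 against 1.83 in 4n CMs.

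In single CMs these genes were sparse. After drawing 2000 UMIs from each CM, called thinning, which leaves out shallower CMs (2244, 2142, 4133, 998, 446 and 167 in the order of the libraries), a UMI of Asns was seen in 1.33% and 1.13% of CMs at E16.5, 4.86% (4.15 to 5.67) and 2.19% (1.74 to 2.71) at P1 and 0.303% and 0.287% at P5 in 2n and 4n CMs. Phgdh was seen in 5.85% and 6.94%, 6.70% and 4.32%, and 0.605% and 1.38%. Atf4 was seen in 28.5% and 28.1%, 16.6% and 17.6%, and 12.5% and 15.5%. Without thinning the shares of Asns were 1.70%, 1.46%, 3.88%, 5.25%, 0.725% and 0.985%, and those of Phgdh 6.77%, 8.77%, 5.41%, 8.62%, 1.02% and 3.39%. As a gauge of free RNA in the same CMs, the most frequent immune marker was seen in 1.51%, 1.62%, 0.395%, 1.66%, 1.20% and 1.10% of them without thinning. At P5 the shares of Asns and Mthfd1l in both libraries and of Phgdh in P5-2n were at or below that gauge. So were that of Asns in E16.5-4n and those of Mthfd1l in E16.5-2n and P1-4n. By this gauge these UMIs are not told apart from free RNA, which does not show that they are free RNA. Genes of other cells were more frequent in the same CMs. Col3a1, of fibroblasts, was seen in 3.67% (E16.5-2n) to 28.0% (P1-4n) and the erythroid Hbb-bs in 55.5% (P1-2n) to 87.8% (E16.5-4n). Members above the gauge are thus not shown to be clear of free RNA either.

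At P1 the UMIs of 3 of the enzymes were gathered in few CMs. The variance over the mean of the counts per thinned CM, which is near 1 for random draws, was 1.52 and 1.31 for Phgdh, 1.28 and 1.37 for Mthfd2 and 1.27 and 1.44 for Asns in P1-2n and P1-4n. CMs with 2 or more UMIs held 38.4% and 28.7% of the thinned UMIs of Phgdh in these libraries, against 13.8% and 7.11% at E16.5. For Psph, Shmt1, Shmt2 and Mthfd1 the variance over the mean at P1 was between 0.98 and 1.05. In P1-2n and P1-4n it was 1.125 and 1.08 for Psat1, 1.17 and 1.12 for Atf4 and 0.99 and 1.095 for Mthfd1l. These columns were read after the values had been seen.

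Pairs of these 3 transcripts were seen in the same CMs more often than their shares would give. In P1-2n, 63 of 3207 thinned CMs had both Phgdh and Mthfd2 where 11.4 were expected from their shares, a ratio of 5.53 (4.25 to 7.07), and in P1-4n 35 of 3749 against 5.62, a ratio of 6.23 (4.34 to 8.67). For Phgdh and Asns the ratio was 4.49 (3.30 to 5.98) and 6.21 (3.89 to 9.40), and for Mthfd2 and Asns 5.32 (3.87 to 7.14) and 9.50 (6.26 to 13.8). Asns and Atf4 were seen together 2.16 (1.63 to 2.81) and 2.14 (1.46 to 3.04) times the number expected from their shares. At E16.5 the ratio for Phgdh and Mthfd2 was 1.54 (0.80 to 2.70) in 2n and 1.497 (0.86 to 2.43) in 4n CMs, on 12 and 16 CMs, and for Asns and Atf4 it was 0.84 and 1.03. Of the pairs of these 3 enzymes, Phgdh and Asns in E16.5-4n had an interval above 1 (2.79, 1.02 to 6.07), on 6 CMs. At P5 the counts were low, with 5 and 3 CMs with both Phgdh and Mthfd2. The 5 in P5-2n give a ratio of 14.3 (4.63 to 33.3), above the 5.53 of P1-2n but with overlapping intervals. The E16.5 ratios of Asns with Phgdh or Mthfd2 likewise rest on 4 to 6 CMs each. The difference between the ages was not tested.

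Psat1 was seen with them as follows, and no difference between pairs was tested. In P1-2n its ratio was 3.02 (1.51 to 5.40) with Asns and 2.52 (1.21 to 4.63) with Mthfd2. These are values of 1 library and not of both P1 libraries. Over all 6 libraries, 16 CMs had both Psat1 and Asns, so that the ratio with Asns rests on few CMs. In E16.5-2n and E16.5-4n it was 0.32 and 0.38 with Asns, on 1 CM each. With Mthfd2 it was 1.23 (0.61 to 2.20) and 1.69 (1.06 to 2.56) there. Summed over the 6 libraries it was 1.38 (0.79 to 2.24) with Asns, above 1 in 2 of them. With Mthfd2 the sum gave 1.75 (1.34 to 2.26), above 1 in all 6. Its ratio with Phgdh was 2.78 (1.52 to 4.67) and 2.47 (1.07 to 4.86) at P1 and 1.33 (0.79 to 2.10) and 1.19 (0.71 to 1.85) at E16.5. Summed over the 6 libraries, the highest ratios of the 45 pairs were those of Mthfd2 and Asns (5.23), Phgdh and Asns (4.199) and Phgdh and Mthfd2 (3.59), and the same pairs had 5.19, 4.26 and 3.65 without CMs with stromal UMIs and 5.50, 6.90 and 4.65 after thinning to 1000 UMIs, where Phgdh and Asns were thus highest of the 3. Psph and Shmt1 had a ratio of 1.07 (0.78 to 1.44), Psph and Asns 1.97 (1.34 to 2.80), Psph and Mthfd2 1.52 (1.14 to 1.98) and Shmt1 and Shmt2 1.31 (1.04 to 1.64).

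**Figure D3:**
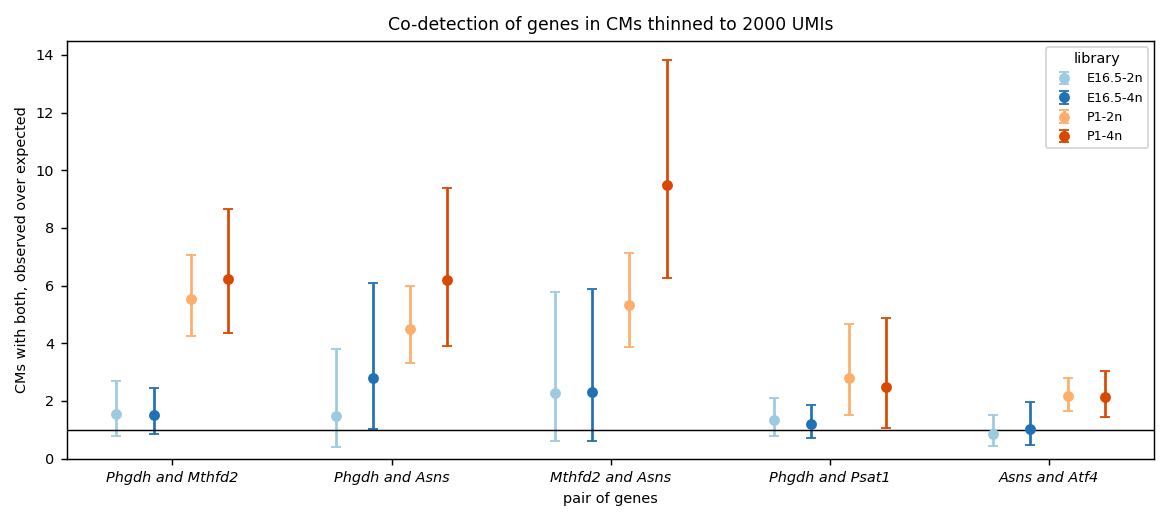
CMs with UMIs of both genes of a pair, as a ratio of observed over expected CMs (linear axis from 0), in the E16.5 and P1 libraries after thinning to 2000 UMIs. Points are single libraries, bars exact 95% counting intervals, and the line at 1 marks the number expected from the shares of both genes. The pairs of Phgdh, Mthfd2 and Asns lie between 4.49 and 9.50 at P1 and between 1.49 and 2.79 at E16.5. P5 is not shown. At most 5 CMs there held both genes of any pair of these 3, and Phgdh and Mthfd2 in P5-2n lay above all points shown, with a wide interval. The E16.5 points of Asns with Phgdh or Mthfd2 rest on 4 to 6 CMs each.

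CMs were then grouped by how many of Phgdh, Psat1, Mthfd2 and Asns had a UMI after thinning, and the summed CPM of 27 ATF4 targets that are not members was taken in each group. The gene lists were chosen with earlier results of these data known. In P1-2n the list was at 1013 CPM in the 2748 CMs with none, 1465 in the 333 with 1, 2021 in the 96 with 2 and 2167 in the 30 with at least 3. In P1-4n it was at 1028, 1248, 1500 and 2679 in 3384, 296, 55 and 14 CMs. In both P1 libraries the measured level was higher with each enzyme more, but not all steps exceeded the counting error. In P1-2n the intervals with 2 (1825 to 2232) and at least 3 (1810 to 2573) overlapped. In P1-4n those with 1 (1160 to 1342) and 2 (1280 to 1747) did. At E16.5 the list was at 1391 and 1264 with none and 1395 and 1375 with 2. The P5 libraries had 833.8 and 813.3 with none and 700 and 923.1 with 2. The 12 aminoacyl-tRNA synthetases, which load amino acids for translation and include known targets of ATF4, went from 375.9 to 780.8, 1089 and 1650 CPM in P1-2n and from 341.5 to 662.2, 872.7 and 1286 in P1-4n.

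**Figure D4:**
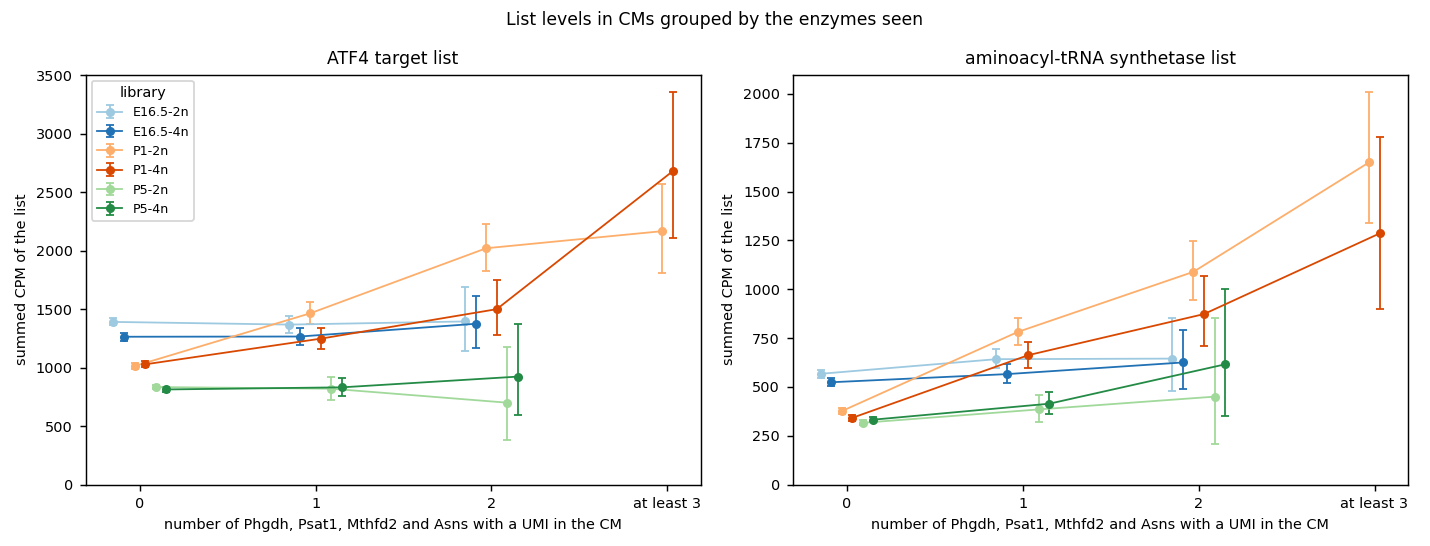
Summed level (CPM, linear axis from 0) of 27 ATF4 targets (left) and 12 aminoacyl-tRNA synthetases (right) in CMs grouped by the number of Phgdh, Psat1, Mthfd2 and Asns seen after thinning to 2000 UMIs. Lines join the groups of 1 library, bars are exact 95% Poisson intervals, and groups under 10 CMs are left out. The ATF4 targets go from 1013 to 2167 CPM in P1-2n and from 1028 to 2679 in P1-4n and stay near 1391 and 1264 in the E16.5 libraries.

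A comparison of CMs with at least 2 of the 4 enzymes with CMs with none was chosen after these values had been seen. Since the gene lists, too, were chosen with earlier results known, their ratios are descriptions and no independent support. The ATF4 target list had a log2 ratio of 1.02 (0.89 to 1.15) in P1-2n, from 126 CMs, and 0.76 (0.57 to 0.94) in P1-4n, from 69 CMs. It was 0.00 (-0.27 to 0.27) and 0.10 (-0.13 to 0.33) in E16.5-2n and E16.5-4n, from 42 and 60 CMs, and -0.25 (-1.12 to 0.50) and 0.18 (-0.46 to 0.76) in P5-2n and P5-4n, from 10 and 13 CMs. These sums rest mostly on a few abundant targets and say little of the sparse ones. In P1-2n CMs with none, Eif4ebp1 made 2497 and Slc38a2 1134 of 5566 UMIs, with log2 ratios of 0.70 and -0.49. In E16.5-2n CMs with none, Eif4ebp1, Atf3 and Slc38a2 made 2856, 1564 and 1177 of 8035 UMIs. The groups with at least 2 enzymes are not alike between ages. In E16.5-2n, 18 CMs had both Phgdh and Psat1 where their shares gave 13.6, and 12 both Phgdh and Mthfd2 where they gave 7.78. In P1-2n, 63 CMs had the latter pair where 11.4 were expected. The E16.5 ratios are thus not like for like with those at P1, and the difference was not tested. The tRNA synthetase list was at 1.70 (1.52 to 1.87) and 1.49 (1.22 to 1.74) at P1, at 0.33 (-0.06 to 0.70) and 0.26 (-0.10 to 0.59) at E16.5, and at 0.51 (-0.62 to 1.44) and 0.89 (0.08 to 1.59) at P5. Chaperones of the endoplasmic reticulum, which mark the unfolded protein response, were at 0.47 (0.27 to 0.67) and 0.37 (0.10 to 0.63) at P1 and at 0.33 (0.09 to 0.55) and -0.27 (-0.51 to -0.04) in E16.5-2n and E16.5-4n. Depth moved with the grouping at P1, since the CMs with at least 2 enzymes had a median of 4227 UMIs before thinning against 2819.5 in P1-2n and 6983 against 3730.5 in P1-4n, while the medians at E16.5 were 2867.5 and 2934 against 2769.5 and 3107. Among CMs below the median of UMIs the ATF4 target list was at 0.87 (0.44 to 1.27) in P1-2n on 14 CMs and at 0.19 (-0.68 to 0.94) in P1-4n on 6 CMs, and among those above it at 1.02 and 0.80. CMs with stromal UMIs were 38.2% and 21.4% of those with 2 and at least 3 enzymes in P1-4n and 40.8% of those with none, and without them the ratios were 1.02 and 0.83.

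Of the 23 ATF4 targets with at least 20 UMIs in the thinned P1 libraries combined, 17 had a ratio above 0 with its whole interval and 2 (Slc38a2 and Atf3) below, where 6.1% of all genes were above and 6.39% below. Among the 17, Fgf21 (12 UMIs in CMs with none and 10 in those with at least 2 enzymes) and Pycr1 (18 and 5) reached 20 UMIs only through the latter CMs. The list was chosen with earlier results of these data known, so that the count describes these CMs and is no independent support. Of these 17, 13 had such an interval in P1-2n on its own, 10 in P1-4n and 9 in both, and Slc7a1, Gdf15 and Cebpg had it in neither. The libraries make up unequal parts of the groups, with 126 of the 195 CMs with at least 2 enzymes and 2748 of the 6132 with none from P1-2n. Trib3, a pseudokinase induced by ATF4, had 36 UMIs in 126 CMs with at least 2 enzymes and 23 in 2748 CMs with none in P1-2n, and 8 in 69 and 13 in 3384 in P1-4n, log2 ratios of 5.09 (4.30 to 5.92) and 4.92 (3.44 to 6.30). Nupr1, a stress-induced nuclear protein, had 22 against 7 UMIs in P1-2n and 10 against 29 in P1-4n, ratios of 6.10 (4.82 to 7.57) and 4.08 (2.88 to 5.16). In P1-2n both genes thus had more UMIs in the 126 CMs than in the 2748, and in P1-4n fewer in the 69 than in the 3384.

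Atf5, a transcription factor related to ATF4, was at 3.70 (3.12 to 4.27) and 2.84 (2.08 to 3.52) in P1-2n and P1-4n. Slc3a2, a subunit of amino acid exchangers, was at 2.37 (1.71 to 2.98) and 2.41 (1.54 to 3.19), and Ddit3, which encodes CHOP, at 1.41 (0.89 to 1.90) and 1.37 (0.70 to 1.97). Atf3, a stress-induced factor that is also listed as a target, went the other way, at -2.72 (-5.77 to -0.85) and -1.36 (-3.24 to 0.00). Chac1, which degrades glutathione, had 7 UMIs in the 195 CMs with at least 2 enzymes and 9 in the 6132 with none. Of the 6 members that did not define the groups, Atf4 was at 1.84 (1.46 to 2.20) and 1.38 (0.84 to 1.87), and Psph (1.499 and 1.518), Shmt2 (1.23 and 1.91) and, over both libraries, Mthfd1l also had intervals above 0, while those of Shmt1 and Mthfd1 included it. Among the tRNA synthetases 11 of 12 were above over both P1 libraries combined, with Wars as the exception, and 0 below (6.1% and 6.39% of all genes). In the E16.5 libraries combined, 1 of these 12 was above (Gars, against 3.42% of all genes) and 1 below (Wars, against 1.7%). At E16.5, with 102 CMs against 5084, 1 of 21 targets was above (Pycr1, against 3.42% of all genes) and 0 below (1.7%), and none of the 6 other members. At P5, with 23 CMs against 7001, 0 of 19 targets were above (3.0% of all genes) or below (0.517%).

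Over whole libraries the ATF4 targets did not move as 1 list. Trib3 was at 2.74, 2.98, 12.4, 8.03, 0.335 and 0.435 CPM in the order of the libraries, and Nupr1 at 0.82, 2.30, 7.42, 8.29, 0.558 and 1.41, both highest at P1 like Asns. Chac1 had 4, 3, 36, 50, 4 and 2 UMIs. Fgf21, a hormone of the stress response, was chosen after its values were seen. It had 0 UMIs in both E16.5 libraries, 67 and 57 in P1-2n and P1-4n, and 2 and 0 at P5. With under 100 UMIs in each comparison of ages, Fgf21 was too sparse for a ratio, and none is given. Ddit3 was instead at 98.5, 104.6, 68.8, 69.0, 30.1 and 39.7 CPM, and Atf3 at 252.9, 186.8, 56.6, 65.0, 22.5 and 25.8, both highest at E16.5 like Atf4. Of the list, 3 of 20 targets (Nupr1, Trib3 and Atf5) were past the fold upwards and 1 (Atf3) downwards from E16.5 to P1 in 2n CMs (3.87% and 6.21% of all genes), and the same genes in 4n CMs, of 22 (5.06% and 6.77%). From P1 to P5, 6 of 21 were downwards in 2n CMs (1.48% of all genes) and 5 of 21 in 4n CMs (4.06%), 4 of them (Trib3, Nupr1, Atf3 and Sesn2) in both, and 0 upwards. Trib3 (204 and 158 UMIs in P1-2n and P1-4n) and Nupr1 (122 and 163) reached 100 UMIs only through the P1 libraries, where they were high. Their calls thus follow in part from that threshold and are no support for a pattern of the list. The steps up and down also share the P1 libraries and are not independent. The median target lay at -0.01 and 0.23 from E16.5 to P1 and at -0.59 and -0.80 from P1 to P5 in 2n and 4n CMs.

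The further folate genes had other time courses. Tyms, which makes thymidylate, was at 28.0, 44.8, 8.82, 12.8, 13.9 and 17.1 CPM, and it was past the fold downwards from E16.5 to P1 in both ploidies (-1.33 and -1.51). In all, 0 of 12 further folate and glycine cleavage genes were upwards and 3 downwards from E16.5 to P1 in 2n CMs, among them Tyms and Sfxn1, a mitochondrial serine carrier (-1.04), and 0 and 3 of 14 in 4n CMs, among them Tyms and Amt, of the glycine cleavage system (-1.445). Beside this and the next counts, 6.21% of all genes were downwards in 2n and 6.77% in 4n CMs. Of 10 genes of purine synthesis, 10 lay below the median of all genes in both ploidies from E16.5 to P1, at a median of -0.48 and -0.40, with 0 and 1 (Pfas) past the fold. Of the methionine cycle and transsulfuration, 0 of 5 genes were past the fold in 2n CMs and 1 of 7 (Ahcy, downwards) in 4n CMs. From P1 to P5, 0 genes of the purine and methionine lists were past it. The ER chaperones were past the fold downwards for 4 of 8 genes from E16.5 to P1 in both ploidies, led by Sdf2l1 (-2.81 and -2.11), and of 3 tested kinases of eIF2 alpha 0 were past it in the comparisons of consecutive ages.

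Within libraries, 3 of the enzymes were higher in CMs assigned to G2/M than in CMs assigned to G1 before birth and at P5. Phases came from cell cycle scores of each CM, with gene lists that hold no member. In E16.5-2n, P1-2n and P5-2n, 15.9%, 21.0% and 14.4% of CMs were assigned to G2/M with each library scored on its own. Scored together, the shares were 14.2%, 2.40% and 4.71%. These CMs were sorted as diploid, so that G2/M here is a score of transcripts and not a DNA content. Mthfd2 had a log2 ratio of G2/M over G1 of 1.96 (1.48 to 2.43) and 1.74 (1.38 to 2.13) in E16.5-2n and E16.5-4n, 1.37 (0.71 to 2.02) and 2.03 (1.65 to 2.41) in P5-2n and P5-4n, but -0.27 (-0.66 to 0.10) in P1-2n and 0.48 (0.15 to 0.80) in P1-4n. Psat1 was at 0.87, 1.12, 0.35, 1.38, 1.03 and 1.47, above 0 with the whole interval in 5 of 6 libraries, the exception being P1-2n. With all libraries scored together, Psat1 was at 1.285 (0.19 to 2.205) in P1-2n, and its intervals lay above 0 in 6 of 6 libraries. Phgdh was at 0.74 and 0.98 before birth and at 1.45 (0.30 to 2.56) and 1.22 (0.68 to 1.76) in P5-2n and P5-4n. At P1 it was at -0.48 (-0.82 to -0.15) and 0.44 (0.17 to 0.71) in P1-2n and P1-4n. By its share, Phgdh in P5-2n was not told apart from free RNA. For Phgdh and Mthfd2 the sign in P1-2n depended on the scoring, since with all libraries scored together both were above 0 in 6 of 6 libraries (0.43 and 0.22 in P1-2n, where 176 CMs were then in G2/M). With each library scored on its own, Asns was above 0 in 1 of 6 libraries, and its interval excluded 0 only in P1-2n, from below. Scored together, Asns was above 0 in 2 of 6 libraries, and no interval excluded 0. In P1-2n it was then at 0.28 (-0.69 to 1.105), so that its sign there depended on the scoring too. With each library scored on its own, Atf4 was at 0.37 (0.15 to 0.60) and 0.72 (0.56 to 0.87) in P5-2n and P5-4n. Mthfd1l was at 1.68 (0.37 to 2.95) and 2.03 (0.72 to 3.46) there, on 47 and 34 UMIs not told apart from free RNA.

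Shmt1, Mthfd1 and Mthfd2 were higher in S than in G1, above 0 in 6 of 6 libraries under both scorings. Mthfd2 was at 1.43 and 1.00 in E16.5-2n and E16.5-4n and at 1.27 and 1.11 in P5-2n and P5-4n, with intervals above 0 in these 4 libraries, and Phgdh was at 0.62 and 1.04 in the E16.5 libraries. With each library scored on its own the log2 ratios were 0.34 to 1.07 for Shmt1 and 0.21 to 0.64 for Mthfd1, with intervals above 0 in 5 and 4 libraries (4 and 2 scored together). Psph had no interval above 0 in S or G2/M in any library. The shares of CMs in G1 were 59.2%, 47.0%, 49.9%, 58.9%, 55.1% and 58.1% when each library was scored on its own and 55.0%, 30.6%, 81.9%, 80.4%, 56.4% and 53.9% when scored together, and the P1 libraries moved most. Free RNA enters such scores too, and its part was not tested.

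**Figure D5:**
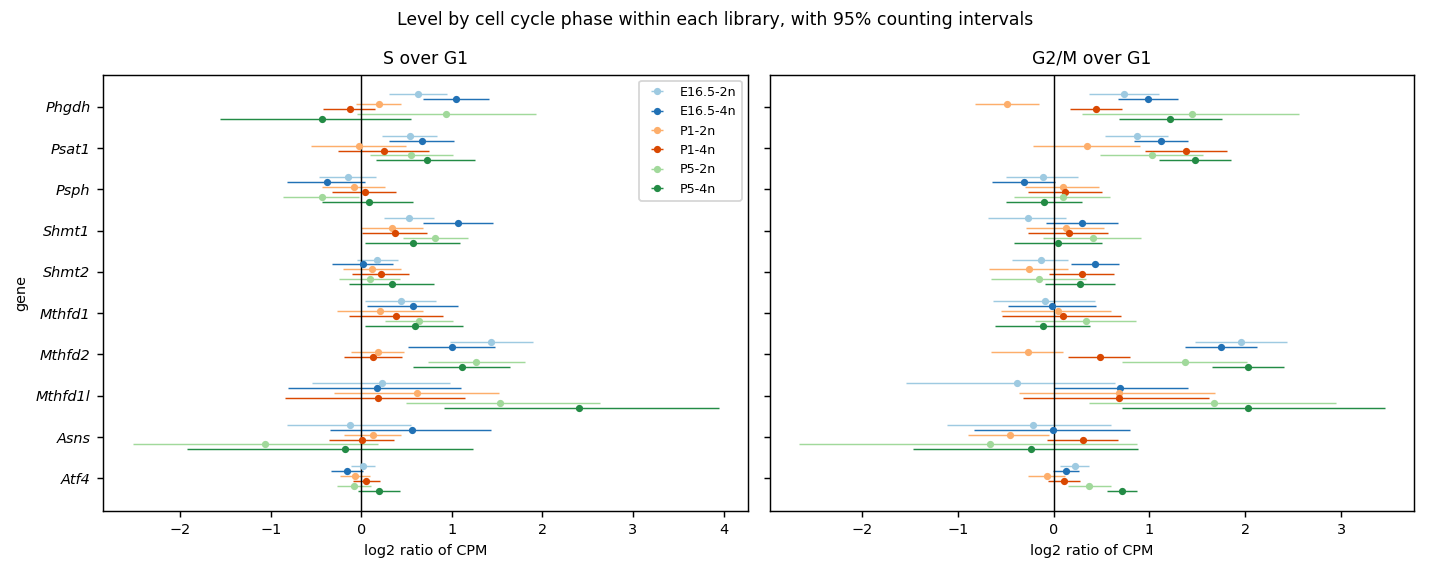
Log2 ratio of CPM in S over G1 (left) and G2/M over G1 (right) for each gene in each library, with each library scored on its own. Points are single libraries and bars exact 95% counting intervals. Mthfd2 lies between 1.37 and 2.03 on the right in the E16.5 and P5 libraries and at -0.27 and 0.48 at P1, and Shmt1 lies above 0 on the left in all 6 libraries.

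Across CMs, the genes most like the summed UMIs of Phgdh, Psat1, Mthfd2 and Asns by the mean over the 6 libraries of Pearson's r were H2afz (0.0987), Ube2c (0.0955), Ran (0.0953), Tubb5 (0.0909) and Stmn1 (0.0863) of 7066 genes, all weak and described only. H2afz, Ube2c, Tubb5 and Stmn1 are genes of dividing cells. The mean covers libraries that differed. In P1-2n these genes were at 0.0557, 0.0299, 0.0065 and -0.005 in that order, and Ran was at 0.154. Atf5 (0.28), Eif2s2 (0.263) and Gars (0.235), of lower mean r, stood higher in that library. Across the 6 libraries, the enzyme sum was most like Zfp277, Osbpl8, Hgsnat, Rab2a and 1110012L19Rik, but 450 of 6794 genes had an r of at least 0.95 with it, as 6 libraries that share 3 ages and both ploidies allow.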

How the data were processed

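The deposited values are UMI counts, not normalized, for each gene in each cell of 6 Chromium 3' v2 libraries, made with Cell Ranger and STAR on mm10 (GRCm38) per the labels; strands were kept apart in counting. The members and gene lists were chosen with earlier results of these data known. Counts were summed over CMs (at least 1 UMI of each of 4 sarcomere genes) with Python 3.11.15, numpy 2.4.6, scipy 1.17.1 and pandas 2.3.3, and thinned with a fixed seed to 2000 UMIs per CM (1000 as an alternative). No doublet caller was run, and leaving out the 5% of CMs with most UMIs was an alternative. Phases came from Seurat 5.3.0 in R 4.3.3, on genes seen in at least 3 cells. Genes needed 100 UMIs over a comparison, or 20 for comparisons within libraries. Named were all members, up to 5 genes of each list with the largest ratio in a comparison, Chac1, Ddit3 and Trib3, and the 5 genes most like the enzymes. Exact 95% intervals were used throughout, since 1 library per group allows no test. Promoters came from RefSeq and positions from GENCODE (GRCm38). The procedures were tested on simulated data. The values of 1 listed folate gene are not reported here.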

Additional observations from a re-analysis of the deposited data

Results flagged for a closer look

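For 3 members the ratio of 4n over 2n CMs had opposite signs at different ages with both intervals off 0 (others changed sign with intervals that included 0), relative to the median of all genes and with 1 library per group, so that the difference between ages was not tested. Phgdh was at 0.31 at E16.5, -0.29 at P1 and 1.29 at P5 (log2). Mthfd2 was at 0.72, -0.25 and 0.92 in the same order. Atf4 was at -0.11, 0.13 and 0.24. The sign at P1 turned under an alternative for each: without the 5% of CMs with most UMIs Phgdh was at 0.01 and Mthfd2 at 0.094, and without CMs with stromal UMIs Atf4 was at -0.0015. CMs with at least 2 stromal UMIs were more frequent in the 4n library at each age (24.8% against 3.54%, 37.9% against 3.51% and 17.2% against 9.31%), and their part was not tested.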

How the results depend on the processing

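No paired analysis was possible because each group had 1 library. Counting error is the only error given, and genes under 100 UMIs in a comparison, such as Mthfd1l and Asns between ploidies at P5, were too sparse for a ratio. The alternatives without the 5% of CMs with most UMIs, and all those of the target lists, were chosen after seeing the data. For the enzyme sum log2 ratio, E16.5 to P1 in 2n CMs, -0.30 became 0.0033 with the median of ratios, -0.062 without the 50 most abundant genes, -0.69 as a mean over cells and -0.58 without the 5% of CMs with most UMIs. In 4n CMs -0.52 became -0.22, -0.28, -0.87 and -0.63 in the same order, -0.64 without CMs with stromal UMIs and -0.79 thinned to 2000 UMIs. From P1 to P5, -1.001 in 2n became -0.87 with the median of ratios, -0.62 as a mean over cells, -1.09 thinned and -0.76 without the 5%, and -0.74 in 4n became -0.62, -0.41, -0.52 and -0.64. From 2n to 4n, 0.04 at E16.5 became 0.12 without stromal CMs, and -0.19 at P1 became -0.12 as a mean over cells, -0.52 thinned and -0.0286 without the 5%. Among CMs below the median of UMIs, the ATF4 target list was at 0.87 in P1-2n, 0.19 in P1-4n (6 CMs) and -1.71 in P5-2n (4 CMs), and the tRNA synthetase list at -0.90 in P1-4n (2 UMIs in 6 CMs). Phgdh from E16.5 to P1 in 2n, 0.49, became -0.19 as a mean over cells and -0.04 without the 5%. Phgdh in 4n, -0.09, became 0.22 with the median of ratios and 0.16 without the 50 most abundant genes. Mthfd2 in 4n, -0.18, became 0.12 and 0.06 in that order, and from P1 to P5 in 4n, -0.56, it became 0.13 as a mean over cells. Relative to all genes, Mthfd2 from E16.5 to P1 in 2n was no longer past the fold of 2 as a mean over cells (0.40), thinned (0.99) or without the 5% (0.57). The cause was not tested. Asns from P1 to P5 was between -4.23 and -3.10 in 2n and between -3.46 and -2.43 in 4n CMs in all alternatives run.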
